A study of Rattus norvegicus with 15 samples.

Results

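The transcripts of 9 genes that control lipid metabolism in the liver were followed across the 3 treatment groups. They are Srebf1, Mlxipl, Mlx, Nr1h2, Nr1h3, Ppara, Rxra, Hnf4a and Ppargc1b. Members were all probe sets whose platform gene symbol, current or former, was one of these names. That gave 14 of 31099 probe sets and 9 of the 9540 genes tested. All 15 arrays were liver RNA from male Sprague Dawley rats, aged 7 weeks at the start and kept on high fat chow in which fat supplied 59% of the calories. Daily gavage for 6 weeks gave 5 samples vehicle (0.5% methylcellulose), 5 samples PF-04923503 at 10 mg/kg and 5 samples PF-04923503 at 30 mg/kg. PF-04923503 inhibits acetyl-CoA carboxylase (ACC), which supplies malonyl-CoA to the fatty acid chain. Whether each sample is a different rat is not stated in the labels, and the p-values therefore refer to variation among the samples alone.

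SREBP-1 (from Srebf1) and the ChREBP–Mlx pair (Mlxipl and Mlx) bind the promoters of lipogenic genes in response to insulin and to sugar. The liver X receptors (Nr1h2 and Nr1h3) sense oxysterols, pair with RXR-alpha (Rxra) and induce Srebf1, while PPAR-alpha (Ppara), also an RXR partner, senses fatty acids and induces their oxidation. HNF4-alpha (Hnf4a) maintains hepatocyte gene expression, and PGC-1-beta (Ppargc1b) is a coactivator that binds SREBPs. Several are controlled after transcription, by cleavage of the precursor for SREBP-1 and by ligands for the receptors, and an RNA array reads none of that.

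The regulators' transcripts differed little between the treated and vehicle groups, while most genes of fatty acid synthesis had higher means in treated livers. In limma with Benjamini-Hochberg adjustment over 9540 genes, 0 of 9 regulators were called (adjusted p under 0.05) at 10 mg/kg against vehicle, where 0.105% of all genes were called. The same count was 0 of 9 at 30 mg/kg against vehicle (0% of all genes), 0 of 9 for both doses against vehicle (0.147%) and 0 of 9 at 30 mg/kg against 10 mg/kg (0%). Few calls were made anywhere, so these counts are close to the background. Regulators whose groups did not overlap also numbered 0 of 9 in each comparison, against 2.44%, 3.21%, 0.608% and 0.943% of all genes in the same order. At an unadjusted p under 0.05 there was 1 regulator at 10 mg/kg (Mlx, with a higher mean), against 13.3% of all genes, and 1 at 30 mg/kg (Ppara, with a lower mean), against 16.1%. For both doses together it was the same 2 of 9, against 17.7% of all genes, so these counts too are near the background. The median log2 difference of the 9 at 10 mg/kg was -0.02, the same as over all genes, and at 30 mg/kg both medians were -0.03. The comparisons of each dose with vehicle share the 5 vehicle samples.

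**Figure D1:**
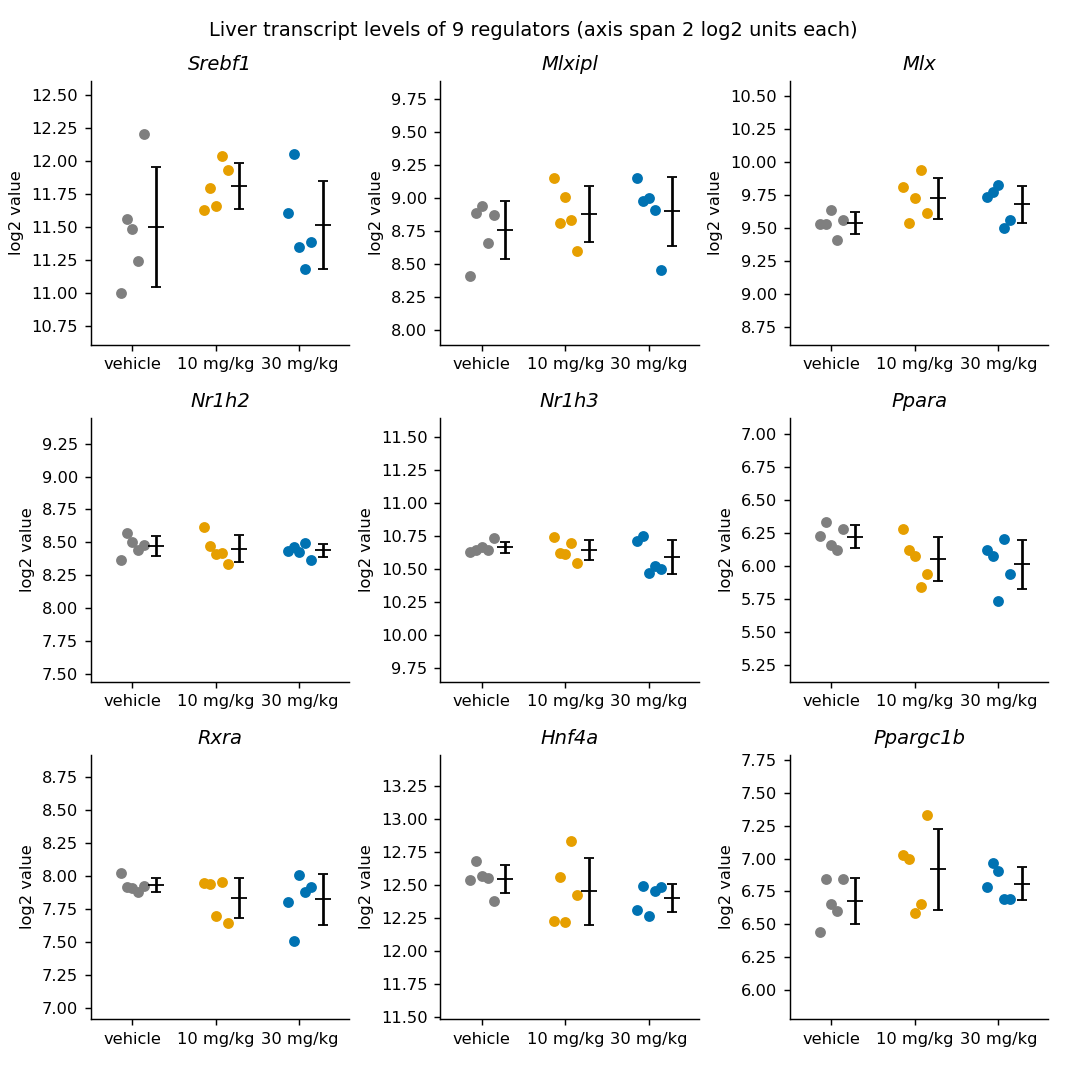
Log2 value of the probe set standing for each of the 9 regulators in each sample, by group (vehicle, 10 mg/kg, 30 mg/kg); points are samples, black marks and bars the mean and SD (n = 5), and each vertical axis spans 2 log2 units. The treated and vehicle points overlap in all 9 panels, and Srebf1 has the widest scatter, with 1 vehicle sample at 12.21.

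Arrays were alike as a whole: medians lay between 6.08 and 6.12, and correlations between pairs of arrays lay between 0.9893 and 0.9959. Of 10 hepatocyte markers, 9 were measured, and their mean log2 level lay between 14.26 and 14.30 in every sample of each group, near the top of a scale that ended at 15.38. The mean log2 level of 10 measured macrophage markers lay between 9.11 and 9.67 in vehicle samples, 8.76 and 9.35 at 10 mg/kg and 8.67 and 9.59 at 30 mg/kg. For 9 endothelial markers it lay between 8.70 and 8.90 in vehicle samples, 8.40 and 8.75 at 10 mg/kg and 8.50 and 8.78 at 30 mg/kg. The part of these shifts in the regulators' values was not tested, and in whole liver fewer cells of a type and less RNA per cell cannot be told apart.

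Srebf1 is carried on chromosome 10 and Mlx on the same chromosome, while Mlxipl lies on chromosome 12. Their promoters are shown because these genes bind, or bind with a partner, the promoters of the lipogenic genes, and because Srebf1 and Mlx followed lipogenic output most closely among the 9. Windows ran from 250 bases before to 50 bases after the start, from RefSeq on GRCr8, and all 9 regulators had at least 1 of the 12 windows found. Capitals mark matches, on either strand, to 4 motifs. The SRE-like motif was searched as TCACNC. The E-box was searched as CACGTG. The other motifs were the CCAAT box and the GC box, GGGCGG. Positions are counted from the start of transcription.
Srebf1, the second of 2 annotated starts, chr10:45518961-45519260, minus strand: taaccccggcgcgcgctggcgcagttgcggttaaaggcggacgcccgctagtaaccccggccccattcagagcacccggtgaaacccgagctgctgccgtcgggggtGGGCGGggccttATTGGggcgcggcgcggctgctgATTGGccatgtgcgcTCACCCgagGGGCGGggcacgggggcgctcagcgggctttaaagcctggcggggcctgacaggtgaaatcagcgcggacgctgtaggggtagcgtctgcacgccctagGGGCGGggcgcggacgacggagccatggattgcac
Mlx, chr10:86519636-86519935, plus strand: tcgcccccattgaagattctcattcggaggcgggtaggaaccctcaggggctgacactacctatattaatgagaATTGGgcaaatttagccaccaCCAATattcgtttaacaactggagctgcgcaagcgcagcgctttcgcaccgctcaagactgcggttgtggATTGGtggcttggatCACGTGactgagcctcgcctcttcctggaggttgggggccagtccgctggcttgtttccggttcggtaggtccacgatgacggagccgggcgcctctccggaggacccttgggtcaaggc
Mlxipl, the first of 2 annotated starts, chr12:27213611-27213910, minus strand: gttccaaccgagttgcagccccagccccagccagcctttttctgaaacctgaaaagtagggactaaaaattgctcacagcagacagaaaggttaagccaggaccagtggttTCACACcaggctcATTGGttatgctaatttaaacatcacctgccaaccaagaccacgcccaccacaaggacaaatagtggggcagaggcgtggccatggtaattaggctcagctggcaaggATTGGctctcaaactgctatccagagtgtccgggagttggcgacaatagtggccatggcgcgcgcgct

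Of the 2 annotated Srebf1 starts, the window of the second is printed because it held the SRE-like motif. The window of the first held 0 SRE-like motifs, 1 CCAAT box and 3 GC boxes. The printed Srebf1 window held TCACCC at -93, CCAAT boxes on the opposite strand at -131 and -108, and GC boxes at -143, -84 and 16. Srebf1 in mammals is transcribed from alternative first exons, which give SREBP-1a and SREBP-1c, and the files do not say which transcripts each probe set reads. Mlx carried the only E-box among the regulators' windows, CACGTG at -70, beside CCAAT boxes at -176, -155 and -85. The 2 annotated Mlxipl starts gave nearly the same window, with TCACAC and 2 CCAAT boxes. Of the 12 regulator windows, 6 held the SRE-like motif, against 41.7% of all 33469 windows of 300 bases. The E-box stood in 1 of 12 regulator windows, against 6.42% of all windows. CCAAT boxes stood in 7 of 12, against 37.5% of all, and GC boxes in 7 of 12, against 33.1% of all. The 12 windows came from 9 genes and are not independent, and the motifs of the overlapping Mlxipl windows are counted in both. The windows with CCAAT boxes belonged to Srebf1, Mlxipl, Mlx and Hnf4a alone. Those with the SRE-like motif belonged to Srebf1, Mlxipl, Nr1h3 and Hnf4a alone. The nuclear receptor hexamer AGGTCA was in 0 of 12, against 16.2% of all, and its direct repeats with 1 or 4 bases between were in 0 of 12, against 18 and 2 of the 33469 windows. Windows were found for 9 of the 12 lipogenic genes described below, and not for Fasn, Acaca or Elovl6. Of these 9 windows, 2 held the SRE-like motif, 1 the E-box, 6 a CCAAT box and 6 a GC box. The Scd window held none of the 4 marked motifs. All of these are letter matches in a short window and do not show binding.

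Srebf1 was the most variable of the 9. Its 5 vehicle samples had log2 values of 11.00, 11.56, 11.49, 11.24 and 12.21. The 10 mg/kg samples had 11.63, 11.80, 11.66, 12.04 and 11.93, and the 30 mg/kg samples had 11.61, 12.05, 11.35, 11.18 and 11.39. The highest and the lowest of all 15 values were both vehicle samples, replicates 5 and 1, and the 5 samples at 10 mg/kg lay close together above the other 4 vehicle samples. The mean was 11.81 ± 0.18 at 10 mg/kg, 1.24 times that of vehicle (95% confidence interval 0.929 to 1.66, limma adjusted p = 0.522), where it was 11.50 ± 0.45 (SD, n = 5 each). At 30 mg/kg the mean was 11.52 ± 0.34, 1.01 times that of vehicle (0.756 to 1.35, limma adjusted p = 0.979). The 30 mg/kg mean was 0.814 times the 10 mg/kg mean (0.609 to 1.09, limma adjusted p = 0.882). Leaving out vehicle replicate 5 gave a log2 difference at 10 mg/kg of 0.49 (limma adjusted p = 0.199), against 0.31 with it.

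The second Srebf1 probe set ran lower on the scale but in step with the first. Its log2 values were 9.29, 9.94, 9.89, 9.60 and 10.63 in vehicle samples, 9.98, 10.06, 9.99, 10.41 and 10.19 at 10 mg/kg, and 9.95, 10.25, 9.71, 9.58 and 9.71 at 30 mg/kg. Pearson's r between the probe sets over 15 arrays, after group means were removed, was 0.983, Spearman's rho was 0.971 and the permutation p was 1e-05 for each, the smallest the resamples can give (adjusted p = 3e-05 over 6 such pairs). Without the 2 arrays farthest from the median r was 0.976. The pooled SD of Srebf1 within groups was 0.341 log2 units, larger than in 95% of all genes tested, whose median was 0.119.

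The ChREBP side of the pathway was less variable than Srebf1. The pooled SD was 0.233 for Mlxipl, still at percentile 88.0 of all genes, and 0.131 for Mlx, at percentile 58.8. Mlxipl, which encodes the glucose-sensing subunit, had log2 values of 8.41, 8.89, 8.94, 8.66 and 8.87 in vehicle samples. It had 9.15, 8.81, 9.01, 8.83 and 8.59 at 10 mg/kg and 9.15, 8.97, 9.0, 8.91 and 8.45 at 30 mg/kg. The groups overlapped almost fully, and the lowest sample of each lay between 8.41 and 8.59. The Mlxipl mean was 1.09 times that of vehicle at 10 mg/kg (0.892 to 1.33, limma adjusted p = 0.724) and 1.11 times at 30 mg/kg (0.905 to 1.35, limma adjusted p = 0.621).

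Mlx, the obligate partner of ChREBP, had log2 values of 9.53, 9.53, 9.64, 9.41 and 9.56 in vehicle samples. It had 9.81, 9.54, 9.73, 9.94 and 9.62 at 10 mg/kg and 9.73, 9.77, 9.83, 9.50 and 9.56 at 30 mg/kg. Of the 10 treated samples, 6 lay above every vehicle sample, and 4 lay within the vehicle range. The Mlx mean was 1.14 times that of vehicle at 10 mg/kg (1.01 to 1.29, limma adjusted p = 0.331). At 30 mg/kg it was 1.11 times (0.981 to 1.25, limma adjusted p = 0.390), and for both doses 1.12 times (1.01 to 1.25, limma adjusted p = 0.231). The second Mlx probe set gave log2 differences of 0.16 at 10 mg/kg and 0.13 at 30 mg/kg, and it followed the first with r = 0.755 (rho 0.750, permutation adjusted p = 0.00433, r = 0.666 without the 2 farthest arrays).

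Both liver X receptor genes were among the steadiest of the regulators. Nr1h3, the LXR-alpha of hepatocytes, had log2 values of 10.63, 10.64, 10.66, 10.64 and 10.74 in vehicle samples, 10.75, 10.62, 10.61, 10.70 and 10.55 at 10 mg/kg, and 10.72, 10.75, 10.47, 10.52 and 10.50 at 30 mg/kg. Replicates 3, 4 and 5 at 30 mg/kg lay below all other samples, and the other two lay near the top. Its mean was 0.987 times that of vehicle at 10 mg/kg (0.902 to 1.08, limma adjusted p = 0.920) and 0.951 times at 30 mg/kg (0.870 to 1.04, limma adjusted p = 0.576). Nr1h2, the widely expressed LXR-beta, ranged from 8.34 to 8.61 over all 15 samples, with a pooled SD of 0.079 at percentile 16.4 of all genes. Its mean was 0.986 times that of vehicle at 10 mg/kg (0.910 to 1.07) and 0.977 times at 30 mg/kg (0.902 to 1.06), with limma adjusted p-values of 0.902 and 0.801. The second Nr1h2 probe set was at or below 4.86 in every sample, above the array median in 0 of 15, and was the 1 member of 14 that the filter on low values removed. It ran against the first probe set (r = -0.518, rho -0.339, permutation adjusted p = 0.0814).

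Ppara and Rxra both had lower means in treated samples, and neither passed the test. Ppara read near the array median of 6.095, above it in 9 of 15 samples, and its pooled SD within groups was 0.154. Its log2 values were 6.22, 6.33, 6.16, 6.12 and 6.28 in vehicle samples, 6.28, 6.12, 6.08, 5.84 and 5.94 at 10 mg/kg, and 6.12, 6.07, 5.73, 6.20 and 5.93 at 30 mg/kg. All 5 vehicle samples lay within 6.12 to 6.33, and of the 10 treated samples 4 lay in that range and 6 below it. The mean was 0.889 times that of vehicle at 10 mg/kg (0.775 to 1.02, limma adjusted p = 0.450) and 0.865 times at 30 mg/kg (0.755 to 0.992, limma adjusted p = 0.283). Rxra, with log2 values of 8.02, 7.92, 7.91, 7.88 and 7.93 in vehicle samples, had 7.95, 7.94, 7.70, 7.96 and 7.65 at 10 mg/kg and 7.80, 7.51, 8.01, 7.88 and 7.92 at 30 mg/kg. The highest sample was a vehicle one, and the 4 lowest were all treated. Its mean was 0.937 times that of vehicle at 10 mg/kg (0.823 to 1.07, limma adjusted p = 0.676) and 0.928 times at 30 mg/kg (0.816 to 1.06, limma adjusted p = 0.568).

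Hnf4a had the brightest signal of the 9, at percentile 98.7 of all probe sets, although levels of different probe sets cannot be ranked as amounts of RNA. Its log2 values were 12.54, 12.68, 12.57, 12.56 and 12.38 in vehicle samples, 12.23, 12.56, 12.22, 12.83 and 12.43 at 10 mg/kg, and 12.31, 12.50, 12.27, 12.46 and 12.49 at 30 mg/kg. The groups overlapped, and the highest and the lowest sample were both at 10 mg/kg. Its mean was 0.937 times that of vehicle at 10 mg/kg (0.806 to 1.09, limma adjusted p = 0.726) and 0.906 times at 30 mg/kg (0.779 to 1.05, limma adjusted p = 0.510). The other 2 Hnf4a probe sets gave log2 differences of 0.04 and 0.05 at 10 mg/kg and -0.01 and -0.01 at 30 mg/kg, against -0.09 and -0.14 from the brightest one, so the sign at 10 mg/kg depended on the probe set.

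Ppargc1b, whose product coactivates SREBPs in mouse liver, had log2 values of 6.44, 6.85, 6.66, 6.60 and 6.85 in vehicle samples. It had 7.02, 7.00, 6.59, 6.65 and 7.33 at 10 mg/kg and 6.78, 6.96, 6.91, 6.70 and 6.69 at 30 mg/kg. Replicate 5 at 10 mg/kg was the highest, and 3 of the 5 samples at that dose lay above every vehicle sample. The mean was 1.18 times that of vehicle at 10 mg/kg (0.980 to 1.42, limma adjusted p = 0.429) and 1.09 times at 30 mg/kg (0.908 to 1.32, limma adjusted p = 0.637). Over the 9 regulators the intervals against vehicle reached at most 1.66 times (Srebf1 at 10 mg/kg) and at least 0.755 times (Ppara at 30 mg/kg), and larger changes of mean level lay outside them.

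**Figure D2:**
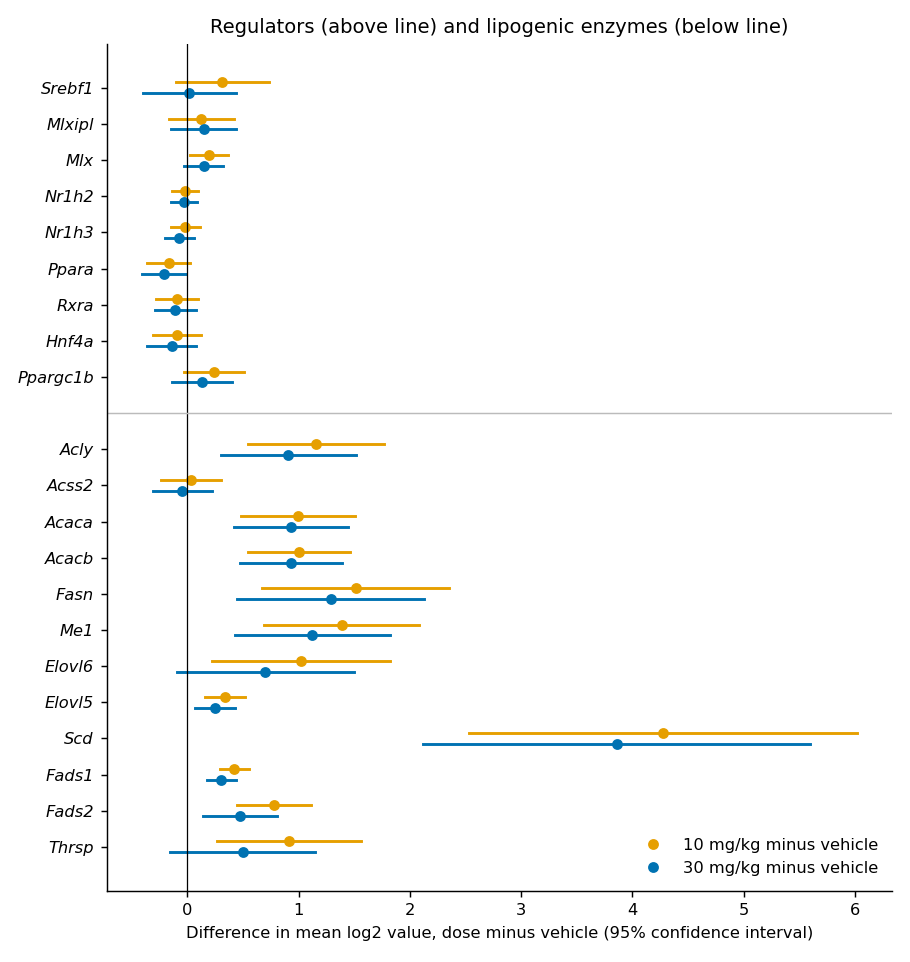
Difference in mean log2 value, dose minus vehicle, for the 9 regulators (above the line) and 12 lipogenic genes (below it); points are limma estimates at 10 mg/kg and 30 mg/kg and bars their 95% confidence intervals (n = 5 per group). The regulators lie between -0.21 and 0.31, while 11 of 12 lipogenic genes lie above 0 at both doses and Scd lies highest, at 4.28 at 10 mg/kg and 3.86 at 30 mg/kg.

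Lipogenic output was described by the transcripts of 12 genes tied to fatty acid synthesis, elongation and desaturation, all of them measured. They were Acly, Acss2, Acaca, Acacb, Fasn, Me1, Elovl6, Elovl5, Scd, Fads1, Fads2 and Thrsp. The term stands for RNA levels alone, and the arrays do not read the rate of fatty acid synthesis, which the inhibitor acts on. All 12 had a higher mean at 10 mg/kg than in vehicle samples, and 11 of 12 did at 30 mg/kg, with median log2 differences of 1.00 and 0.80 against -0.02 and -0.03 over all genes. Limma called 1 of 12 at 10 mg/kg, Fads1, the delta-5 desaturase, at 1.34 times vehicle (1.22 to 1.47, adjusted p = 0.0427), 0 of 12 at 30 mg/kg, and 2 of 12 for both doses together. The shares of all genes called were 0.105%, 0% and 0.147% in the same order. At an unadjusted p under 0.05, 11, 9 and 11 of the 12 had higher means and 0 lower, against 4.49%, 5.27% and 5.3% of all genes with higher means at that threshold. The list was chosen with earlier results of these data known, so these counts describe it and do not test it. The 2 calls for both doses were Scd, the stearoyl-CoA desaturase, at 16.8 times vehicle (5.90 to 47.7, adjusted p = 0.0361 in limma) and Fads1 at 1.29 times (1.19 to 1.39, limma adjusted p = 0.0205). Both rose, and all 3 calls depended on single arrays: over 15 fits that left out 1 array each, Scd was called in 5 and Fads1 in 11 for both doses, and Fads1 in 7 at 10 mg/kg. At 10 mg/kg the call of Fads1 was lost without vehicle replicate 1, 2 or 4, without 10 mg/kg replicate 2, 3, 4 or 5, or without 30 mg/kg replicate 1, with a limma adjusted p of up to 0.139. Scd was 29.7 times vehicle without vehicle replicate 5 (limma adjusted p = 0.0026) and 13.5 times without vehicle replicate 4 (limma adjusted p = 0.124), and Fads1, for both doses, had a limma adjusted p of 0.0846 without vehicle replicate 4.

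Fasn, Acly and Acaca encode fatty acid synthase, ATP-citrate lyase and the ACC1 isoform, and none of them was called. Fasn was 2.85 times vehicle at 10 mg/kg (1.59 to 5.12, limma adjusted p = 0.149) and 2.44 times at 30 mg/kg (1.36 to 4.38, limma adjusted p = 0.174). Acly was 2.23 times vehicle at 10 mg/kg (1.46 to 3.39, limma adjusted p = 0.132), and Acaca was 1.99 times (1.40 to 2.84, limma adjusted p = 0.122). For the same comparison Srebf1 stood at 1.24 times and Mlxipl at 1.09 times.

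To set regulators against output in each array, a lipogenic output score was taken as the mean, over the 12 genes, of values scaled to mean 0 and SD 1 over the 15 arrays. Vehicle samples scored -1.15, -0.91, -0.64, -1.77 and -0.10. The 10 mg/kg samples scored 0.63, 0.63, 0.50, 0.92 and 0.57, and the 30 mg/kg samples scored 0.11, 1.02, 0.94, -0.15 and -0.58. Every 10 mg/kg sample lay above every vehicle sample, while replicates 4 and 5 at 30 mg/kg lay below vehicle replicate 5.

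Single arrays showed where Srebf1 and output ran together and where they did not. Vehicle replicate 5 had the highest Srebf1 of all 15 (12.21), yet its score ranked 9 and its Scd, at 11.71, lay below all 10 mg/kg samples (12.16 to 13.57). The other vehicle samples had Scd between 6.82 and 8.94. Within the vehicle group replicate 5 was thus highest in Srebf1, Scd and score alike. Its Scd also lay above 30 mg/kg replicates 1 (11.48) and 5 (10.77). Replicate 3 at 30 mg/kg was the reverse case, with Srebf1 at rank 12 (11.35) and the score at rank 2. At 30 mg/kg replicate 2 was high in both, with ranks 2 and 1.

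**Figure D3:**
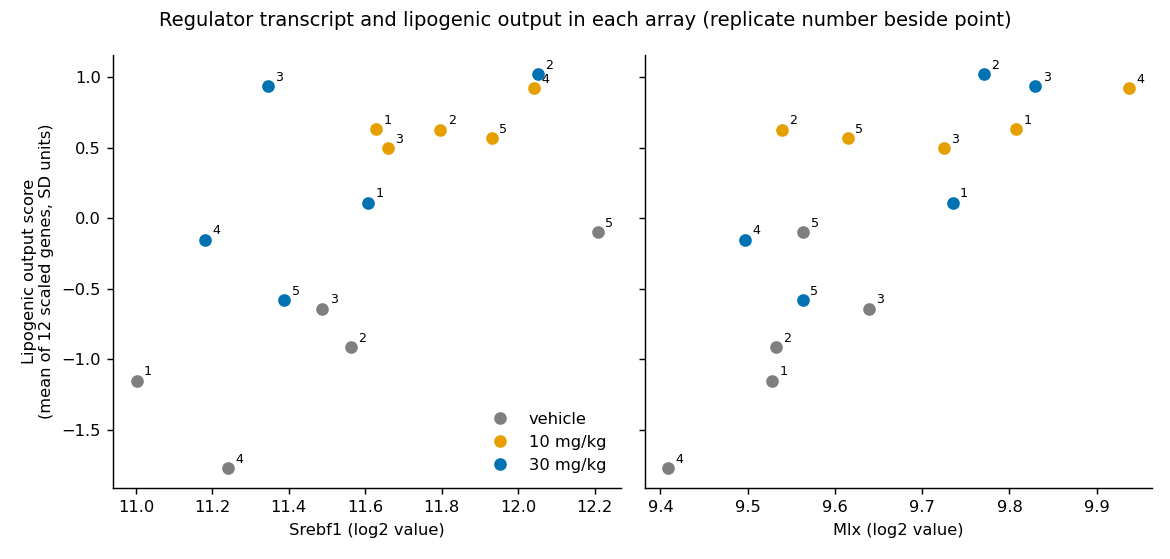
Lipogenic output score (vertical, mean of 12 genes in SD units) against the log2 value of Srebf1 (left) and Mlx (right) in each of the 15 arrays, coloured by group, with the replicate number beside each point. Vehicle replicate 5 lies far right for Srebf1 at a score of -0.10, and 30 mg/kg replicate 3 lies at 0.94 with a Srebf1 value of 11.35.

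With group means removed, 9 regulators were set against the score over 15 arrays, with 100000 two-sided permutations within groups and Benjamini-Hochberg adjustment over the 9. Mlx passed: r was 0.659 (permutation p = 0.00432, adjusted p = 0.0389) and rho was 0.711 (adjusted permutation p = 0.0387). Without the 2 arrays whose score lay farthest from the median, vehicle replicates 4 and 1, r for Mlx was 0.616 with an adjusted permutation p of 0.290 over the 13 arrays left. Leaving out 1 array at a time kept r between 0.601 and 0.734, and the adjusted permutation p lay between 0.0224 and 0.127. It did not pass without vehicle replicate 1, 2, 3 or 4, 10 mg/kg replicate 4 or 5, or 30 mg/kg replicate 1. Over the 10 treated arrays alone r was 0.670 (adjusted permutation p = 0.269).

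Srebf1 had the largest r but did not pass. Its r was 0.680 (permutation p = 0.0274, adjusted p = 0.123) and its rho 0.654 (adjusted permutation p = 0.0938), with r = 0.620 without the 2 farthest arrays and 0.558 over the 10 treated arrays. Leaving out replicate 3 at 30 mg/kg gave r = 0.819 and an adjusted permutation p of 0.0252. Mlxipl had r = 0.495 (rho 0.432, adjusted permutation p = 0.233 for r), and Ppargc1b had r = 0.378 (rho 0.529, adjusted permutation p = 0.197 for r). For Nr1h3 r was 0.395 (rho 0.375, adjusted permutation p = 0.452), and without replicate 3 at 30 mg/kg it was 0.681 (adjusted permutation p = 0.0240). For Nr1h2 r was 0.226 (rho 0.386, adjusted permutation p = 0.546). Ppara, Rxra and Hnf4a gave r of -0.12, -0.14 and -0.08 (rho -0.08, 0.13 and 0.03), each with an adjusted permutation p of 0.736. The regulators shared arrays, so the 9 relations were not independent of each other.

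**Figure D4:**
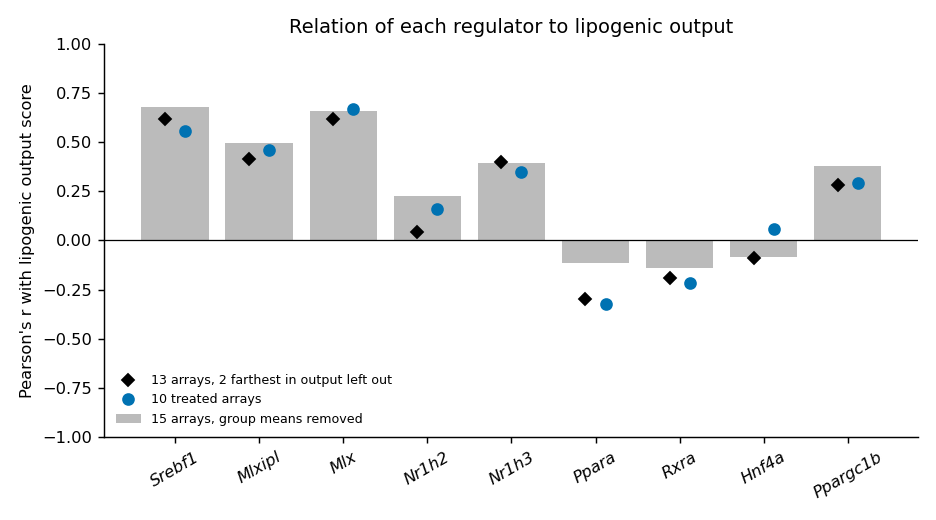
Pearson's r between each regulator and the lipogenic output score after removal of group means (bars, 15 arrays), without the 2 arrays farthest in score (diamonds, 13 arrays) and over the 10 treated arrays (circles). Srebf1 and Mlx have the tallest bars, at 0.680 and 0.659, and the bars of Ppara, Rxra and Hnf4a lie between -0.142 and -0.0817. Over the 10 treated arrays Ppara lies at -0.324, Rxra at -0.215 and Hnf4a at 0.0599.

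The lipogenic genes were not all alike in how they followed Srebf1 from array to array. As a description over 15 arrays with group means removed, r with Srebf1 was 0.823 for Scd, 0.808 for Acly, 0.785 for Fasn and 0.699 for Acaca. Among the 9539 other genes, 4, 7, 17 and 78 had a higher r in turn. For Acss2, acetyl-CoA synthetase, r was 0.200, and for Fads2, the delta-6 desaturase, it was 0.203. The 5 genes most like Srebf1 were Ero1a (0.867), Xpc (0.859), Tars3 (0.837), Hoxd9 (0.835) and Scd itself (0.823). Those most like Mlxipl were Stx16 (0.883), Cdh17 (0.875), Nfrkb (0.852), Ccnt2 (0.827) and Clk4 (0.824), and 0 of these 5 were lipogenic genes of the list.

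Among the regulators themselves, 0 of 36 pairs passed a within-group permutation test adjusted over the 36. The closest was Mlxipl with Nr1h2 (r = 0.743, rho 0.689, permutation p = 0.00179, adjusted p = 0.0644, r = 0.672 without the 2 farthest arrays). Srebf1 with Nr1h3, its known inducer, had r = 0.567 (rho 0.468, adjusted permutation p = 0.190), and 0.299 without the 2 farthest arrays.

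A fit with the Srebf1 value of each array as a covariate, added after the data were seen, compared groups at equal Srebf1. The median log2 difference of the 12 lipogenic genes was then 0.74 at 10 mg/kg, 0.79 at 30 mg/kg and 0.76 for both doses, against 1.00, 0.80 and 0.91 without the covariate. Scd was 14 times vehicle at 30 mg/kg (6.85 to 28.6, limma adjusted p = 0.0150), a call that the fit without the covariate did not make. It was 9.17 times vehicle at 10 mg/kg (4.23 to 19.9, limma adjusted p = 0.0961) and 11.3 times for both doses (5.99 to 21.4, limma adjusted p = 0.0106). Fads1 was not called at 10 mg/kg with the covariate (1.31 times, limma adjusted p = 0.0961). The covariate is a measured value of the same arrays, so this fit describes the arrays and does not separate a cause.

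The genes around the regulators were read from lists, which were chosen with earlier results of these data known. Over all 9540 genes, 0.105% were called at 10 mg/kg and 0% at 30 mg/kg. A count of 0 called in a list is therefore near the background. Of 14 genes that control or partner SREBPs, all measured, 0 were called at either dose, and their log2 differences had medians of 0.03 for the lower dose and -0.01 for the higher one. Insig1, which retains SREBPs in the endoplasmic reticulum and is itself an SREBP target, was 1.52 times vehicle at 10 mg/kg (1.03 to 2.26, limma adjusted p = 0.346) and 1.46 times at 30 mg/kg (0.985 to 2.17, limma adjusted p = 0.327). Nfyb, a subunit of the CCAAT-binding factor NF-Y, was 1.21 times vehicle at 10 mg/kg (limma adjusted p = 0.336). Of 7 measured genes of the MondoA and Max network, 0 were called. Mnt, a Max-binding repressor, was 0.857 times vehicle at 30 mg/kg (limma adjusted p = 0.229), and Myc was 1.94 times (1.02 to 3.71, limma adjusted p = 0.299).

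Other nuclear receptors gave the same count, 0 of 19 measured at each dose, with median log2 differences of -0.04 and -0.06. Pparg, the adipogenic PPAR, was 0.747 times vehicle at 10 mg/kg (0.581 to 0.961, limma adjusted p = 0.316). Nr0b2, the bile acid-responsive corepressor SHP, was 0.444 times vehicle at 30 mg/kg (0.231 to 0.855, limma adjusted p = 0.226). Rarb went the other way, at 1.58 times vehicle for both doses (1.12 to 2.23, limma adjusted p = 0.179). At 10 mg/kg 8 of the 19 had higher means and 11 lower. Of 15 measured coregulators 0 were called. Ppargc1a, which encodes PGC-1-alpha of the same coactivator family as Ppargc1b, was 1.40 times vehicle at 10 mg/kg (1.06 to 1.84, limma adjusted p = 0.301), and Lpin1, a phosphatidate phosphatase and coactivator, was 1.22 times at 30 mg/kg (1.06 to 1.40, limma adjusted p = 0.202). Pprc1 went the other way, at 0.733 times vehicle at 30 mg/kg (0.567 to 0.947, limma adjusted p = 0.236). At 30 mg/kg 8 of the 15 coregulators had higher means and 7 lower. Of 15 other hepatic transcription factors 0 were called, and Foxa3 was 0.574 times vehicle at 30 mg/kg (0.426 to 0.774, limma adjusted p = 0.131).

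Target lists were read in the same way, by the regulator known to control them. Of all 9540 genes, 3986 had higher means at 10 mg/kg and 3623 at 30 mg/kg, and 0.105% and 0% were called. Of 15 SREBP-1c targets, which overlap the lipogenic list, 1 rose at 10 mg/kg and 0 at 30 mg/kg, and 15 and 13 had higher means. Among these targets the log2 differences had medians of 0.99 for the lower dose and 0.70 for the higher one. Of 12 measured ChREBP targets 0 were called, with medians of 0.31 and 0.18. Pklr, the liver pyruvate kinase, was 1.65 times vehicle at 10 mg/kg (1.21 to 2.26, limma adjusted p = 0.187) and 1.5 times at 30 mg/kg (1.10 to 2.04, limma adjusted p = 0.217).

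LXR targets had both higher and lower means. Of 11 measured, 0 were called, and the median log2 differences were -0.19 at 10 mg/kg and -0.11 at 30 mg/kg. At 10 mg/kg 4 had higher and 7 lower means, against 3986 and 5554 of all 9540 genes, so this split is near the background. Abcg5 and Abcg8, the paired sterol exporters, were 0.427 times (0.293 to 0.621, limma adjusted p = 0.0657) and 0.400 times vehicle (0.256 to 0.627, limma adjusted p = 0.0756) for both doses. Abca1, the cholesterol exporter to HDL, was 2.53 times vehicle (1.54 to 4.18, limma adjusted p = 0.0964).

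Of 17 measured PPAR-alpha targets 0 were called. Higher means were found for 16 at 10 mg/kg and 9 at 30 mg/kg, against 3986 and 3623 of all 9540 genes. The median log2 differences of these targets were 0.20 and 0.05, while Ppara itself had log2 differences of -0.17 and -0.21 (0.889 and 0.865 times vehicle). Cyp4a1, a fatty acid hydroxylase, was 1.65 times vehicle at 10 mg/kg (1.29 to 2.09, limma adjusted p = 0.108) and 1.28 times at 30 mg/kg (1.01 to 1.63, limma adjusted p = 0.294). Slc22a5, the carnitine transporter, was 1.51 times at 10 mg/kg (1.23 to 1.85, limma adjusted p = 0.119). Of 14 measured HNF4-alpha targets 0 were called, with medians of 0.03 and -0.00456, and Apoa4 was 1.69 times vehicle at 10 mg/kg (1.13 to 2.51, limma adjusted p = 0.271). Of 10 measured mitochondrial targets of PGC-1 coactivators 0 were called, with medians of -0.02 and -0.05.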

How the data were processed

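The study profiled liver RNA of 15 samples on an Affymetrix rat genome array read by probe sets. Log2 values per probe set, normalised between arrays, were deposited by the authors; the tools were RMA, GCRMA 2.12.1 and limma 2.14.7 per the submitters' processing notes. Whether RMA or GCRMA made the table was not given in the sources used here. A change shared by most genes would be hidden by this normalisation. Every value column belonged to a sample, and the number of arrays limits the precision.

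Of 31099 probe sets, 57 were controls, 20826 had 1 platform symbol, 436 several and 9780 none, and 20758 matched a current RefSeq entry (GRCr8). A filter kept the 15939 probe sets with at least 5 of 15 values over the median of all values, 6.095, and the brightest stood for each gene. Group means were fitted to all 15 arrays with limma 3.58.1 (R 4.3.3; eBayes; Benjamini-Hochberg over 9540 genes), after a test on simulated data. Correlations used Python 3.11.15, numpy 2.4.6 and scipy 1.17.1. Members and lists were chosen with earlier results of these data known. Named were all members, Acaca, Fasn, Scd and Acly, up to 4 called genes of each other list or else the 3 of smallest p, of which some are given, and the 5 genes most like Srebf1 and Mlxipl. Alternatives were other filters, probe set rules, scalings, the replicate block and leaving out each array.

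Samples with the same replicate number deviated together little: 2 of 15 correlations of their deviations exceeded 0.1 (-0.07 to 0.20). In 4 of 15 the sample of the same number was the closest match in the other group. Whether the numbers mark a shared batch or order cannot be told from these correlations. The main fits treated the samples as unpaired.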

Additional observations from a re-analysis of the deposited data

How the results depend on the processing

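No regulator was called in any of 851 combinations of regulator, comparison and alternative, where the lowest limma adjusted p was 0.159, and 25 of these differences changed sign. Signs of small differences were unstable. Srebf1 at 30 mg/kg against vehicle was -0.00676 by the mean of its probe sets and -0.119 to 0.192 leaving out 1 array. Quantile normalization gave Nr1h2 0.0197 at 30 mg/kg, 0.00754 for both doses and 0.0244 at 30 mg/kg against 10 mg/kg, and Rxra 0.0187 in the last. Leaving out 1 array gave, at 10 mg/kg against vehicle, -0.0613 to 0.00757 for Nr1h2 and -0.0449 to 0.005 for Nr1h3. At 30 mg/kg against 10 mg/kg it gave -0.109 to 0.0447 for Hnf4a, -0.0923 to 0.00723 for Mlx, -0.0508 to 0.131 for Mlxipl, -0.041 to 0.0279 for Nr1h2, -0.0918 to 0.0315 for Ppara and -0.0608 to 0.0659 for Rxra. The cause was not tested.

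Counts over all genes were 10 at 10 mg/kg, 0 at 30 mg/kg (1535 at an unadjusted p under 0.05) and 14 for both doses. Without the filter the first was 3, and with every probe set as a feature they were 16, 10 and 25. With a replicate block they were 0, 0 and 3, so Fads1 was not called at 10 mg/kg. Leaving out 1 array gave 0 to 26, 0 to 5 and 0 to 85; without vehicle replicate 5 they were 21, 5 and 85, and 26 was reached without 30 mg/kg replicate 2. The block changed no regulator's call.

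The relation of Mlx to lipogenic output did not pass with centred values (r = 0.588), a median score (0.578), the mean of probe sets (0.631), treated arrays only (0.670) or without the 2 farthest arrays (0.616), and leaving out 1 array gave 0.601 to 0.734, passing in 8 of 15. Leaving out 1 array gave Srebf1 0.548 to 0.819 and Nr1h3 0.194 to 0.681, both passing only without 30 mg/kg replicate 3. It gave Ppara -0.266 to 0.160, Rxra -0.368 to 0.270 and Hnf4a -0.284 to 0.0851, and Hnf4a was 0.0599 over treated arrays. With the Srebf1 covariate, chosen after seeing the data, the log2 difference of Scd at 30 mg/kg was 3.81 and was called. Signal over background was not analysed here; Ppara read near the array median and the second Nr1h2 probe set below it.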
